A study of Mus musculus with 27 samples.

Results

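The 24 h uterine response to 17β-estradiol (E2, the main ovarian estrogen) was compared between first-generation hybrid mice (F1) and their C3H parent. The difference tested, called the interaction here, was E2 minus vehicle in F1 minus the same difference in C3H. Members were the arrays whose labels name one of 4 groups, 12 of the 27 arrays in the study. The groups were F1 24 h after E2, F1 given vehicle, C3H 24 h after E2 and C3H given vehicle, with 3 arrays each. F1 mice came from C57BL/6 (B6) crossed with C3H/HeJ, and the C3H mice were C3H/HeJ. All were females of 8 weeks without ovaries, which received E2 into the abdomen at 40 µg per kg body weight, or the saline and ethanol vehicle alone. Vehicle arrays carry no time label, so a single vehicle group per strain served as baseline. C3H/HeJ mice are known to carry a missense mutation in Tlr4, the endotoxin receptor, and the F1 are heterozygous for it. Whole uterus was used, and tissue came from 3 animals per treatment group. Which animal an array stands for is not given, so the p-values speak for the spread among these arrays, which may be technical.

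In the uterus of a mouse without ovaries, the epithelium is thin and rests outside the cell cycle. E2 acts through the estrogen receptor Esr1, first on early genes and water uptake, and later on a wave of epithelial DNA synthesis and division that is under way about a day after a dose. Before DNA is copied, ORC, CDC6 and CDT1 load the MCM helicase onto origins, and MCM10, CDC45 and GINS then help to start the fork. E2F transcription factors, freed from retinoblastoma proteins by cyclin-dependent kinases, drive many of these genes.

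Replicate arrays correlated at r = 0.9916 to 0.9961 across genes, and 73.31% to 79.77% of the spots per array were well above background. The 75th percentile of the processed signal, to which every array was scaled, lay between 1211 and 1477 intensity units. C3H E2 24 h replicate 1 stood apart: 482 genes on it were more than 1 log2 unit away from the mean of the group, 445 of them above it and 466 in the lowest 3 deciles of mean signal, against 79 to 157 genes on the other 11 arrays. All F1 E2 arrays were on 1 slide and all C3H vehicle arrays on another, and no slide held both sides of either response, so there is no within-slide value of the interaction. F1 vehicle replicate 3 and the F1 E2 arrays were on slides of another barcode series than the other 8 arrays. Myometrial smooth muscle markers (12 of 12 measured) averaged 3.82 to 4.38 log2 units over the 12 arrays, stromal markers 2.99 to 3.24 and luminal and glandular epithelial markers 1.04 to 2.75, where 0 is the array's 75th percentile. The H2-Ea gene, which B6 mice do not express, served as a check of the labels: B6 uteri averaged -8.94 after E2 and -9.07 in vehicle. It averaged -6.66 ± 0.30 in F1 and -5.35 ± 0.16 in C3H after E2, and -5.95 ± 0.11 in F1 and -5.01 ± 0.25 in C3H vehicle uteri (SD, n = 3 each).

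The E2 response differed between F1 and C3H for 838 of 21866 genes tested at an adjusted p under 0.05, or 3.83% of them. The F1 response was the more positive one for 677 genes (3.1%) and the more negative one for 161 (0.736%). For 393 and 47 of these the responses differed at least 2-fold, 1.8% and 0.215% of all genes tested (2.01% together). E2 itself changed most of the genes measured: 6905 rose (31.6%) and 8075 fell (36.9%) in F1, 68.5% in all, and 5889 rose (26.9%) and 8829 fell (40.4%) in C3H, 67.3% in all. That split depended on the scaling: with each array's median set equal, 8911 rose and 6232 fell in F1 and 7713 rose and 6392 fell in C3H. The median interaction over all genes was 0.03 log2 units. The excess of positive interactions depended in size on the scaling between arrays, with 440 higher and 188 lower (70.1% higher) after quantile normalization and 764 and 49 (94.0%) with no scaling, against 80.8% here. The count depended on single arrays as well: 1912 genes were called without C3H E2 24 h replicate 1, and 349 to 644 when any other single array was left out.

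**Figure D1:**
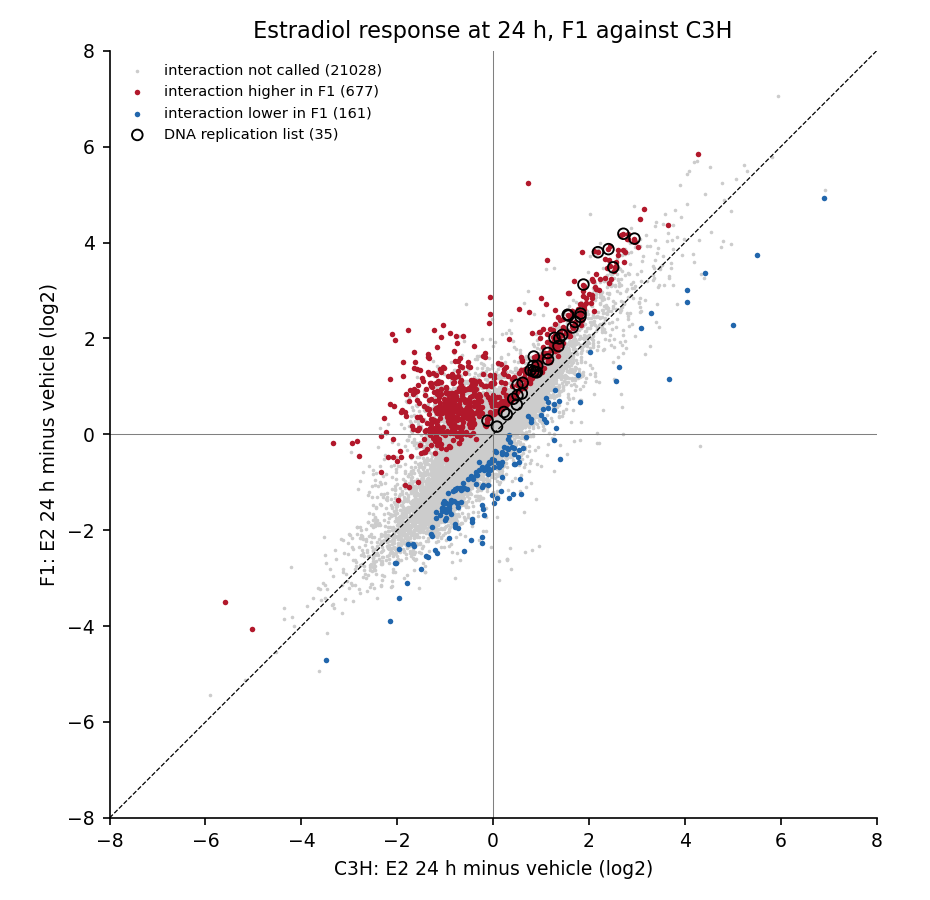
Each point is a gene, with its E2 24 h minus vehicle difference in C3H on the horizontal axis and in F1 on the vertical axis, both in log2 units. The dashed line marks equal responses; the 35 genes of the DNA replication list (circles) all lie above it, and the 677 genes called higher fall into an arm of genes that rose in both strains and a cloud of genes that fell or stayed near 0 in C3H.

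Genes with a more positive F1 response were of 2 main kinds. In 222 of the 677, E2 raised the gene in both strains and raised it more in F1. In 191, the gene fell in C3H and was not called in F1, and in 145 it rose in F1 and fell in C3H. A further 107 rose in F1 without a call in C3H, and 12 fell in both strains but less in F1. The level itself differed between the strains for 15% of all genes after E2 and 14.3% in vehicle. Of the 677 genes, 412 were lower in F1 than in C3H vehicle uteri with no call after E2, 151 were higher in F1 after E2 with no call in vehicle, and 57 were both. Among the 161 with a more negative F1 response, 71 fell in both strains and fell further in F1, 40 fell in F1 only by call, 27 rose in both but less in F1, 13 fell in F1 and rose in C3H, and 10 were called in C3H alone. Of these 161, 75 were lower in F1 after E2 with no call in vehicle and 49 were higher in F1 vehicle with no call after E2.

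DNA replication genes rose more in F1 than in C3H. Of the 35 genes on the list, all measured, 23 were called with a more positive F1 response (65.7%, against 3.1% of all genes tested) and 0 with a more negative one, and all 35 differences were positive, with a median of 0.56 log2 units. All 35 rose in F1 and 32 rose in C3H, by medians of 1.62 and 1.14 log2 units. Both ends of the response differed. In vehicle uteri 15 members were lower in F1 than in C3H (9% of all genes were) and 0 higher (5.35%), with a median difference of -0.27. After E2, 17 were higher in F1 (7.91% of all genes were) and 1 lower (7.12%), with a median difference of 0.27. The mean level of the list was 1.71, 1.80 and 1.70 on the F1 E2 arrays and -0.01, -0.12 and -0.18 on the F1 vehicle arrays, against 1.44, 1.41 and 1.47 on the C3H E2 arrays and 0.25, 0.23 and 0.23 on the C3H vehicle arrays. No array of F1 overlapped the C3H arrays of the same treatment. In whole tissue, a higher level per cell and more cells of a kind cannot be told apart. The markers of luminal and glandular epithelium averaged 2.49, 2.75 and 2.55 on F1 E2 and 1.23, 1.36 and 1.09 on F1 vehicle arrays, against 2.32, 2.51 and 2.41 on C3H E2 and 1.17, 1.08 and 1.04 on C3H vehicle arrays. Their F1 and C3H arrays overlapped in both treatments, and limma called 0 of the 12 for the interaction (2 at an unadjusted p under 0.05). Their median difference of F1 from C3H was 0.21 after E2 and 0.10 in vehicle uteri. In each treatment 2 of the 12 were called higher in F1 and 0 lower. The list had 29 members in the upper 5 deciles of signal, 19 of them called, where 1.5% of genes were called higher. Leaving out 1 array gave 16 to 27 calls, the fewest without C3H vehicle replicate 1 and the most without C3H E2 24 h replicate 1, and 0 in the other direction each time.

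The 4 members with the largest interaction were Uhrf1, Mcm10, Cdc6 and Orc1. Their RefSeq promoters (build GRCm38.p6, 250 bases before to 50 after the start, 5′ to 3′ on the gene's strand) are shown because E2F sites are the textbook route of control for such genes. Capitals mark any of the E2F words TTTGGCGC, TTTCGCGC, TTTCCCGC or TTTGCCGC on either strand. Uhrf1 lies at chr17:56303087-56303386 (plus strand), Mcm10 at chr2:5012742-5013041 (minus), Cdc6 at chr11:98907901-98908200 (plus) and Orc1 at chr4:108579204-108579503 (plus).
Uhrf1: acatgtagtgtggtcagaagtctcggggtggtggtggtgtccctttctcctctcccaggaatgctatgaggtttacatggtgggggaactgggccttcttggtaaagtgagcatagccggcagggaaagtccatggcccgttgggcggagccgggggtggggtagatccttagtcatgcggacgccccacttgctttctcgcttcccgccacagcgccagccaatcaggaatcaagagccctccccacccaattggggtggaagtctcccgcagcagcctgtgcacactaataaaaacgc
Mcm10: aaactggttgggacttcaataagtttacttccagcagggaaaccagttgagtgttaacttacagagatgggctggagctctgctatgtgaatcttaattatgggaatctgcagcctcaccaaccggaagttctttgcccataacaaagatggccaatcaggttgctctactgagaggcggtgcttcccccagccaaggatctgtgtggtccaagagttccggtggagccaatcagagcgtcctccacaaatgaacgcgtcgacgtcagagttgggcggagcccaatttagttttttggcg
Cdc6: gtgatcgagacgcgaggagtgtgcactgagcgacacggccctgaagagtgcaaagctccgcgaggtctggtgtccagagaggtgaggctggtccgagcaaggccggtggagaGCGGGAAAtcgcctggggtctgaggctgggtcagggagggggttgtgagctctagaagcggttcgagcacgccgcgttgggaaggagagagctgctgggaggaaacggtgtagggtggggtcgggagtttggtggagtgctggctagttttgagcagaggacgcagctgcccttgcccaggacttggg
Orc1: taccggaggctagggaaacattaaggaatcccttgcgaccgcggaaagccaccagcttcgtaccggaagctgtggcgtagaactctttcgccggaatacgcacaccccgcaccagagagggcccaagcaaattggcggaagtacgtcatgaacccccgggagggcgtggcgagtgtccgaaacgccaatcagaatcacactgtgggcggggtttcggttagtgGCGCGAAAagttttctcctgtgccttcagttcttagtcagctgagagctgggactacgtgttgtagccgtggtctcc
Cdc6 held 1 such word, starting 138 bases before the start site, and Orc1 held 1, starting 27 bases before it. The Uhrf1 and Mcm10 windows held none of these words in full and are counted below as without one. The Mcm10 window ends in TTTGGCG, so a word running past its edge would be missed. The Uhrf1 window holds CTTCCCGC, which differs from TTTCCCGC in the first letter alone. Of the 29 replication genes with a promoter in the RefSeq table, 12 (41.4%) held an E2F word, against 3.53% of the 13247 tested genes with a promoter. The cell cycle regulator list had it in 7 of 21 (33.3%) and the mitosis list in 1 of 28 (3.57%). Holding the word did not go with a larger difference between strains: the 12 members with it had a median interaction of 0.57 log2 units (7 called), and the 17 without it 0.57 (12 called). The estrogen receptor's core word AGGTCA, on either strand, was in 4 of the 29 replication promoters (13.8%) and in 13.3% of those of tested genes.

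Uhrf1, which brings the maintenance methyltransferase to newly copied DNA, showed the largest interaction of the list. Its level was 2.28, 2.60 and 2.19 log2 units in F1 E2 and -1.36, -1.34 and -1.63 in F1 vehicle uteri, against 1.63, 1.54 and 1.81 in C3H E2 and -0.52, -0.51 and -0.54 in C3H vehicle uteri. F1 arrays were thus below all C3H arrays without E2 and above all of them with it. It rose by 3.80 log2 units in F1 and by 2.19 in C3H, an interaction of 1.61 ± 0.26 (limma SE, adjusted p = 0.00218), and its other probe gave 1.69. Mcm10, needed to start the fork, was at 2.09, 2.06 and 2.06 in F1 E2 and -1.94, -2.03 and -2.38 in F1 vehicle uteri, against 1.56, 1.40 and 1.63 in C3H E2 and -1.12, -1.20 and -1.24 in C3H vehicle uteri. Its interaction was 1.47 ± 0.26 (adjusted p = 0.00461), with the same crossing of the arrays, though its level after E2 alone was not called (adjusted p = 0.0559). Cdc6, which loads the helicase, was at -0.93, -0.59 and -0.96 in F1 E2 and -4.25, -4.81 and -5.00 in F1 vehicle uteri, against -1.47, -1.60 and -1.31 in C3H E2 and -3.83, -3.88 and -3.88 in C3H vehicle uteri, an interaction of 1.46 ± 0.29 (adjusted p = 0.00962). Orc1, a subunit of the origin recognition complex, was at -2.86, -2.75 and -2.83 in F1 E2 and -5.88, -5.90 and -6.03 in F1 vehicle uteri, against -3.08, -3.06 and -3.02 in C3H E2 and -5.07, -4.65 and -5.08 in C3H vehicle uteri. Its interaction was 1.24 ± 0.18 (adjusted p = 0.00133), its level in vehicle was 2.00-fold lower in F1 (adjusted p = 1.66e-05), and the F1 to C3H ratio after E2 was 1.18 (adjusted p = 0.223). All 4 kept their call in each of the 12 fits that left out 1 array and in the other 13 alternatives.

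By role, the helicase loading genes Orc1, Cdc6 and Cdt1, grouped with Mcm10 of the fork start, were all called. Their interactions were 0.56 for Cdt1 to 1.47 log2 units for Mcm10. Of the 6 subunits of the MCM ring, 5 were called, between 0.52 for Mcm4 and 0.73 for Mcm3, and Mcm7 was at 0.24 without a call. CDC45 and the GINS subunits gave 3 calls of 5 (0.08 to 0.77), and the polymerases and primase gave 2 of 5, Pole and its subunit Pole2, with Pola1 at 0.25 and Pold1 at 0.13. The clamp, its loader and the strand-joining enzymes gave 4 of 6 within a narrow range of 0.31 to 0.51. Among the genes of nucleotide supply, the thymidine kinase Tk1 (1.13) and the ribonucleotide reductase subunit Rrm1 (0.56) were called, whereas Rrm2 had 0.98 with an adjusted p of 0.148 and thymidylate synthase, Tyms, 0.57 with an adjusted p of 0.0501. The chromatin assembly subunits Chaf1a (0.90) and Chaf1b (0.94) were called and the methyltransferase Dnmt1 (0.38) was not. The B6 parent had a median response of 1.75 for the list, with 34 of 35 genes called as rising (30.8% of all genes rose in B6, 37.3% fell and 68% were called), beside 1.62 in F1 and 1.14 in C3H. At 2 h after E2, limma called 0 of the 35 for the same difference of responses (14 at an unadjusted p under 0.05, as were 9.21% of all genes), where 0.0915% of all genes were called higher, 0.133% lower and 0.224% in all.

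**Figure D2:**
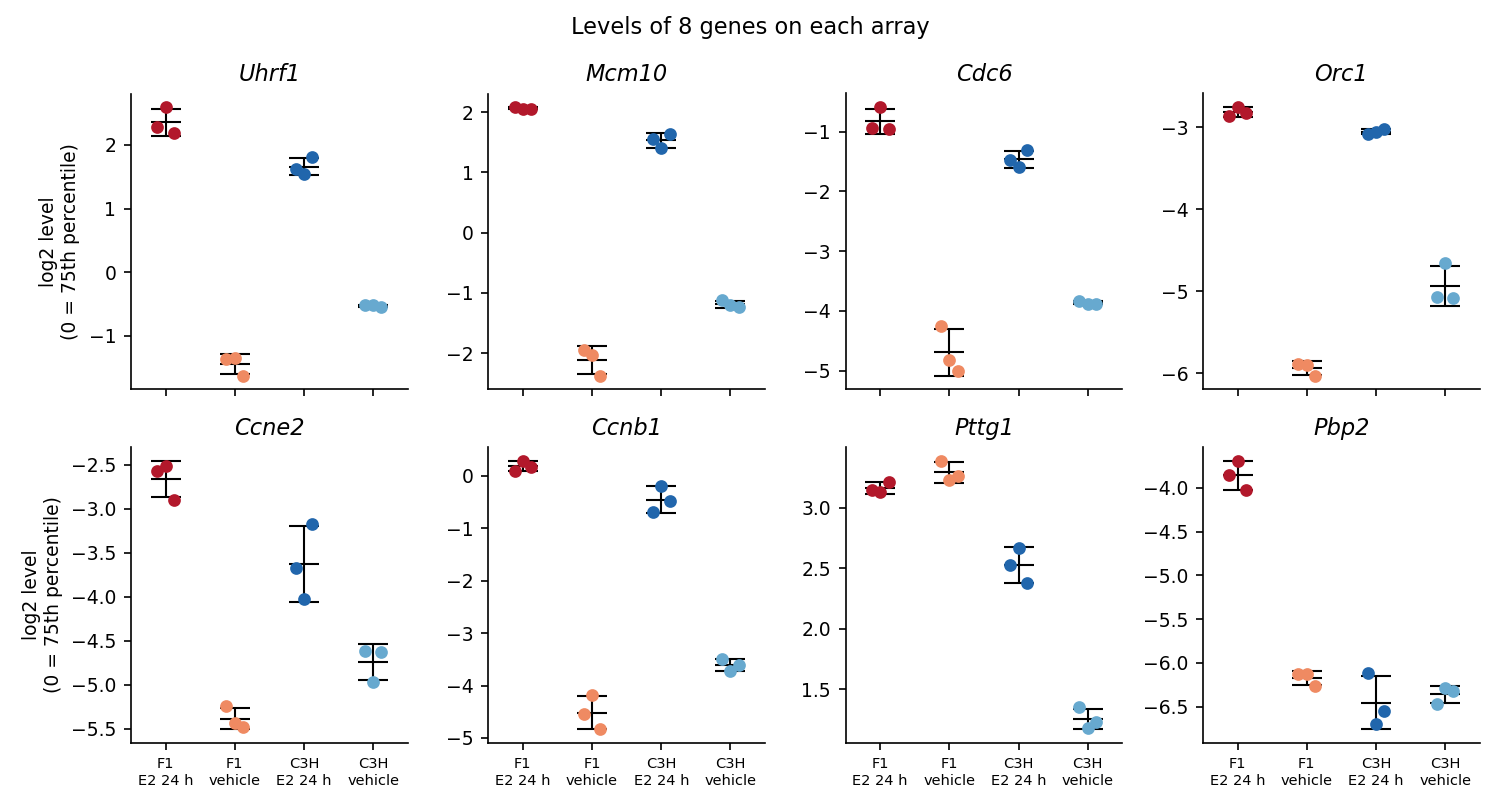
Log2 level (vertical axes, 0 is the array's 75th percentile) of 8 genes on each of the 12 arrays, with points for arrays and bars for the mean and SD of 3 arrays. Uhrf1, Mcm10, Cdc6, Orc1, Ccne2 and Ccnb1 have all F1 points below the C3H points in vehicle uteri and above them after E2. Pttg1 rises in C3H alone and Pbp2 in F1 alone by call.

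Of the 30 cell cycle regulators measured, 8 were called with a more positive F1 response (26.7%, against 3.1% of all genes) and 0 with a more negative one (0.736%), with a median of 0.24 log2 units over the list. The 4 largest were Ccne2 and the E2F genes E2f1, E2f8 and E2f2. Ccne2, a cyclin of S phase entry, was at -2.58, -2.51 and -2.90 in F1 E2 and -5.24, -5.43 and -5.47 in F1 vehicle uteri, against -3.68, -4.03 and -3.17 in C3H E2 and -4.61, -4.97 and -4.62 in C3H vehicle uteri. Every F1 E2 array was above every C3H E2 array, with an interaction of 1.61 ± 0.39 (adjusted p = 0.0285). E2f1, an activator of replication genes, had an interaction of 1.20 ± 0.31 (adjusted p = 0.0355), and E2f8 and E2f2 had interactions of 1.07 and 0.93. Ccne2 kept its call in 5 of the 12 fits without 1 array, E2f1 in 2, and E2f8 and E2f2 in 3 each. Ccne2 and E2f8 also lost it with normexp background correction, quantile normalization and the mean of probes, and E2f1 with quantile normalization. With the slide's barcode series as a term, which rests on F1 vehicle replicate 3, 1 regulator and 17 replication genes were called. Of the 21866 genes tested, 159 were called higher and 51 lower in that fit.

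Mitosis genes showed the same direction with more scatter between arrays. Their median response was 3.25 log2 units in F1 and 2.50 in C3H, and 30 of 32 interactions were positive, with a median of 0.83, but 8 were called higher (25%, against 3.1% of all genes) and 1 lower (3.12%, against 0.736%). After E2 1 of the 32 was called higher in F1 than in C3H (7.91% of all genes were) and 0 lower (7.12%). In vehicle uteri 2 were called higher in F1 (5.35% of all genes were) and 20 lower (9%). Cyclin B1, Ccnb1, was at 0.09, 0.29 and 0.17 in F1 E2 and -4.54, -4.18 and -4.82 in F1 vehicle uteri, against -0.69, -0.19 and -0.49 in C3H E2 and -3.50, -3.71 and -3.61 in C3H vehicle uteri. Its interaction was 1.55 ± 0.41 (adjusted p = 0.0392), that of the spindle midzone gene Prc1 1.19 ± 0.29 (adjusted p = 0.0275) and that of the kinesin Kif20a 1.03 ± 0.26 (adjusted p = 0.0315). The count of 8 is not stable: leaving out 1 array gave 0 to 7, with 0 in 5 of the 12 cases, namely without F1 E2 replicate 2, F1 vehicle replicate 3, C3H E2 replicate 3, C3H vehicle replicate 1 or C3H vehicle replicate 3, and the 12 arrays fitted alone gave 20. That last fit called 412 of all genes higher, against 677 as reported. The median stayed between 0.74 and 0.91 in the 12 fits without 1 array.

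Pttg1 was the 1 mitosis gene called with a more negative F1 response. It encodes securin, which holds back the protease that separates sister chromatids. Its level was 3.14, 3.13 and 3.21 log2 units in F1 E2 and 3.39, 3.23 and 3.26 in F1 vehicle uteri, against 2.53, 2.67 and 2.38 in C3H E2 and 1.35, 1.19 and 1.23 in C3H vehicle uteri. F1 was high with and without E2, 4.10-fold above C3H in vehicle uteri (adjusted p = 1.08e-12) and 1.55-fold above it after E2 (adjusted p = 2.04e-05). The gene rose by 1.27 in C3H and had a response of -0.13 in F1 (adjusted p = 0.179) and -0.55 in B6, and its interaction of -1.40 ± 0.12 (adjusted p = 2.23e-06) held in all 25 alternatives. Pttg1 has 1 tested probe, at chr11:43377052-43377111 on mm7, minus strand, printed here because the call rests on it alone. Whether F1 and C3H transcripts differ in sequence under it was not tested.
Pttg1 probe: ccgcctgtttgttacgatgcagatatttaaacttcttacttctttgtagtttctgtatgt

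Ribosome biogenesis genes were called about as often as all genes, and 3 folding genes of the endoplasmic reticulum were called. Of 32 ribosome biogenesis genes, 31 had a positive interaction and 1 was called (3.12%, near the 3.1% of all genes). Their median was 0.24 log2 units, against 0.03 over all genes and 0.08 in the brightest decile of signal. Of the 27 genes on the endoplasmic reticulum folding list, 26 were positive (median 0.19) and 3 were called (11.1%, against 3.1% of all genes). The 3 were the chaperone Hspa5 and the cofactors Creld2 and Dnajb11. These 3 had no called difference between the strains in vehicle uteri. Hspa5 averaged 5.77 ± 0.14 in F1 E2 and 4.42 ± 0.11 in F1 vehicle, and 5.01 ± 0.32 in C3H E2 and 4.43 ± 0.04 in C3H vehicle uteri (SD, n = 3 each). Its interaction was 0.76 ± 0.20 (adjusted p = 0.0341), that of Creld2 0.77 ± 0.19 (adjusted p = 0.0277) and that of Dnajb11 0.60 ± 0.16 (adjusted p = 0.0428). On Hspa5, C3H E2 replicate 2 was low, at 4.65 against 5.22 and 5.18. These calls held in 3, 5 and 1 of the 12 fits without 1 array, in the order Hspa5, Creld2, Dnajb11.

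**Figure D3:**
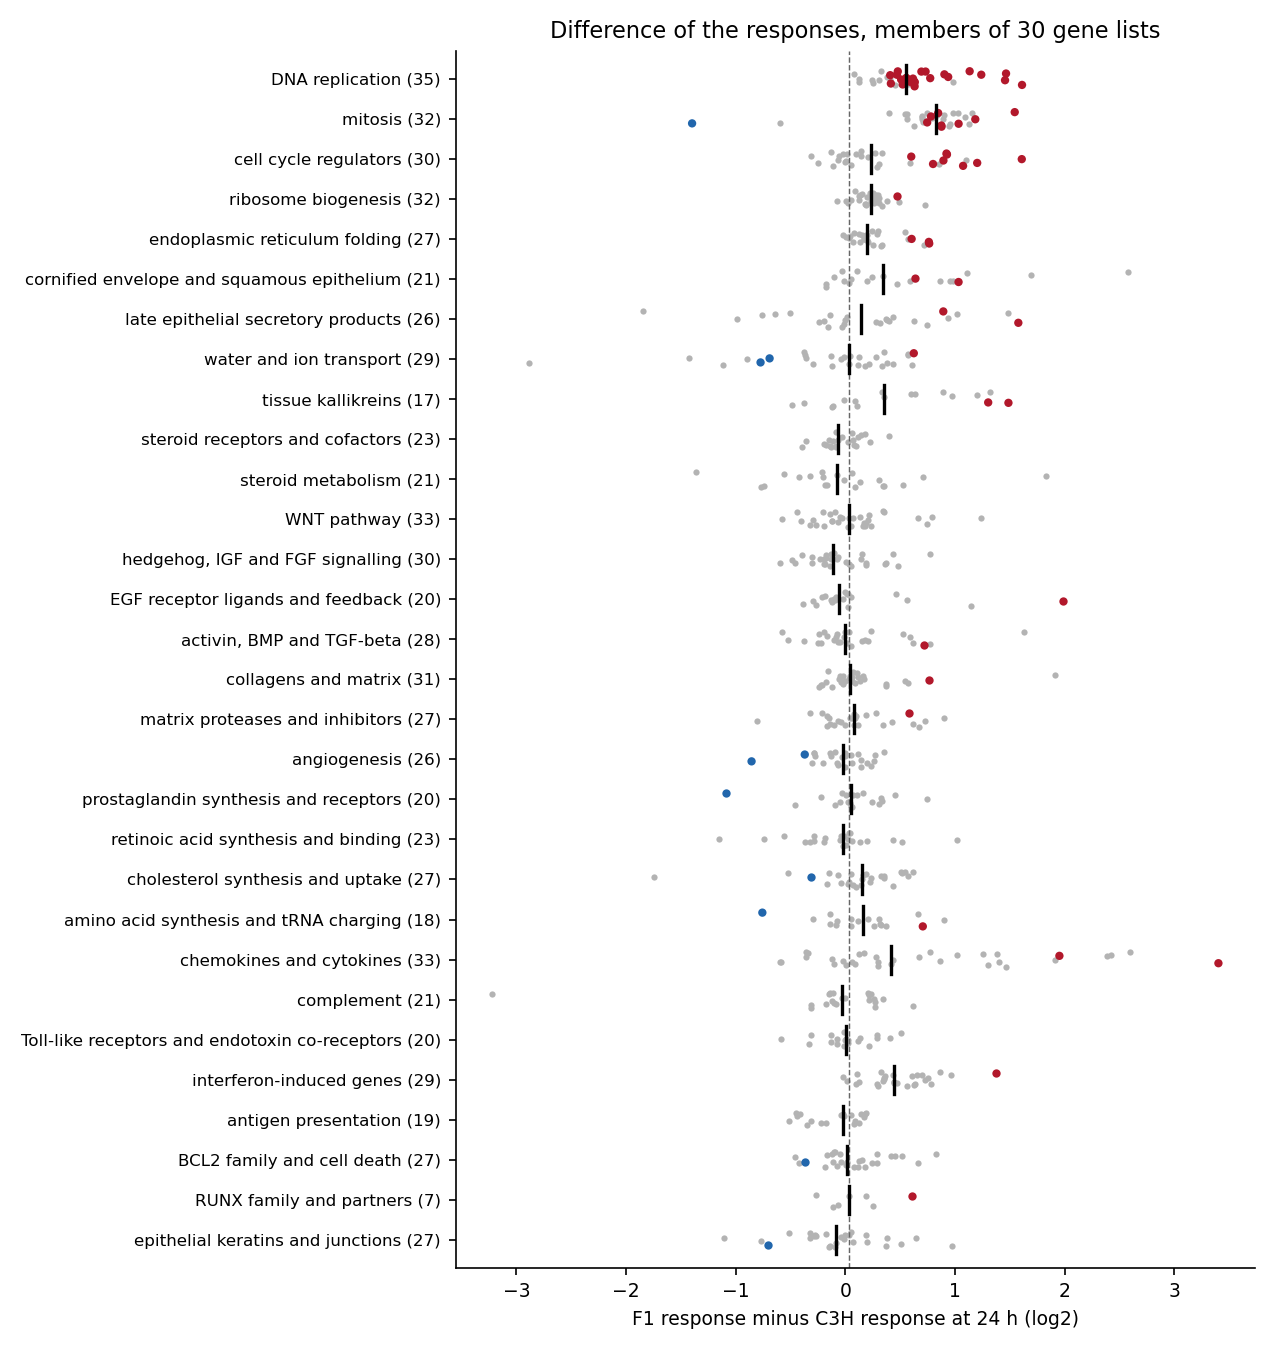
Interaction (horizontal axis, log2) of each member of the 30 process lists, with called members in red (higher) or blue (lower), the others in grey, the list's median as a bar and the median of all genes as a dashed line. All 35 replication genes lie right of the dashed line, which is at 0.03. Further, 30 of 32 mitosis, 31 of 32 ribosome biogenesis, 26 of 27 folding and 22 of 30 cell cycle genes lie above 0.

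Epithelial products and transport genes gave a few calls in both directions. The kallikrein-related protease Klk10 rose by 1.11 log2 units in F1 and fell by 0.37 in C3H, with levels of -2.60, -2.46 and -2.69 in F1 E2 and -3.71, -3.77 and -3.61 in F1 vehicle, against -3.23, -3.19 and -3.53 in C3H E2 and -2.96, -3.00 and -2.87 in C3H vehicle uteri. Its interaction was 1.49 ± 0.21 (adjusted p = 0.00133) and that of Klk11 1.30 ± 0.34 (adjusted p = 0.0375). These were the 2 calls among 17 kallikreins (11.8%, against 3.1% of all genes called higher). The mucin Muc1 (0.89) and the secreted protein Fam3b (1.58) rose in both strains and more in F1, and the cornified envelope genes Krt1 (1.03) and Lor (0.64) were called higher. These calls held in 1 of the 12 fits without 1 array for Muc1 and Fam3b, 7 for Krt1 and 2 for Lor, and Klk10 held in 12 and Klk11 in 3. The second probe of Krt1 gave -0.26 and that of Muc1 0.43. The water channel Aqp5 rose by 2.52 in F1 and 3.30 in C3H, an interaction of -0.77 (adjusted p = 0.0499), and the sodium channel subunit Scnn1a fell by 1.43 in F1 and by 0.74 in C3H. Of 26 angiogenesis genes 2 were called lower (0.736% of all genes were) and 0 higher. Ramp3, partner of the adrenomedullin receptor, rose by 2.22 in F1 and 3.08 in C3H (interaction -0.86 ± 0.20, adjusted p = 0.0214), and the vessel growth factor gene Angpt2 fell by 1.16 in F1 and by 0.79 in C3H. The prostaglandin D synthase Hpgds fell by 1.87 in F1 and by 0.79 in C3H. Ddit4, an inhibitor of the growth kinase mTORC1, rose by 0.51 in F1 and by 1.27 in C3H (interaction -0.76 ± 0.17, adjusted p = 0.0196), and Psat1, of serine synthesis, rose by 2.50 and by 1.79 in the same order. Of the 12 fits without 1 array, 10 kept the call for Ddit4, 9 for Ramp3, 5 for Scnn1a, 4 for Aqp5, 3 for Hpgds, 2 for Angpt2 and 1 for Psat1, which also lost it under each other scaling.

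Immune signals varied between arrays of one group. Cxcl1, a chemokine that draws neutrophils, was at -1.26, -3.32 and -4.79 in F1 E2 and -4.30, -5.62 and -5.95 in F1 vehicle, against -6.21, -5.98 and -5.90 in C3H E2 and -5.03, -4.89 and -4.46 in C3H vehicle uteri. The F1 E2 arrays spanned over 3 log2 units while all lay above the C3H E2 arrays, and the interaction was 3.40 ± 0.87 (adjusted p = 0.0334), kept in 3 of the 12 fits without 1 array. Ccl20 had 1.95 ± 0.47 (adjusted p = 0.0275), kept in 6 of the 12, and both lost their call with normexp. These 2 of 33 chemokines and cytokines were called (6.06%, against 3.1% of all genes). Neutrophil markers (8 measured, 0 called, also at an unadjusted p under 0.05) averaged -2.11, -3.48 and -3.38 on F1 E2 and -4.02, -4.27 and -4.82 on F1 vehicle arrays, against -2.22, -2.27 and -2.67 on C3H E2 and -4.11, -4.22 and -3.64 on C3H vehicle arrays. F1 E2 replicate 1 was the highest F1 array for both Cxcl1 and these markers, and their part in the Cxcl1 result was not tested. The 29 interferon-induced genes had a median interaction of 0.45, against 0.03 over all genes, and 28 were positive. Of the 29, 1 was called (3.45%, near the 3.1% of all genes). It was Oasl1, with 1.38 ± 0.35 (adjusted p = 0.0342), kept in 3 of the 12 fits and lost with normexp.

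Genes with a smaller or more negative response in F1 were fewer. Uts2, which encodes the vasoactive peptide urotensin 2, was at -4.28, -4.78 and -5.03 in F1 E2 and -7.34, -7.00 and -6.62 in F1 vehicle, against -2.24, -1.87 and -2.54 in C3H E2 and -7.45, -7.15 and -7.06 in C3H vehicle uteri. It was well above background on all E2 arrays of both strains and on no vehicle array, so E2 raised it at least 4.35-fold in F1 and at least 25.9-fold in C3H, and after E2 it was 5.58-fold lower in F1 (adjusted p = 3.81e-05). The fitted interaction was -2.71 ± 0.49 (adjusted p = 0.00484) and held in all 24 alternatives run. Etnppl, an enzyme that breaks down phosphoethanolamine, was well above background in C3H E2 uteri alone, at -3.99, -4.68 and -4.26, where E2 raised it at least 6.18-fold. The transcript 2210407C18Rik rose 30.5-fold in F1 and 119-fold in C3H, an interaction of -1.96 ± 0.46 (adjusted p = 0.0227). Slc5a11, a carrier of sodium and inositol, fell by 3.41 in F1 and by 1.97 in C3H. Atp6v1c2, a subunit of the vacuolar proton pump, fell by 2.17 in F1 and by 0.92 in C3H (interaction -1.25 ± 0.16, adjusted p = 0.000491). It stood 7.51-fold above C3H in F1 vehicle uteri, and 3.15-fold after E2. Eps8l1 and Cyp2f2, a cytochrome P450, were 4.34-fold and 3.00-fold higher in F1 vehicle uteri and had no call after E2, with interactions of -1.91 and -1.46. The calls for Etnppl and 2210407C18Rik held in 6 of the 12 fits without 1 array each, and that for Slc5a11 in 3.

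The positive interactions with the smallest p included genes that rose in F1 without a call, or with a fall, in C3H. Crtac1, a secreted matrix protein, was at 0.29, 0.66 and 0.52 in F1 E2 and -4.73, -5.00 and -4.51 in F1 vehicle, against -3.20, -3.93 and -3.62 in C3H E2 and -3.31, -4.56 and -5.06 in C3H vehicle uteri. It rose 37.7-fold in F1, had a 1.66-fold difference in C3H (adjusted p = 0.0602), and rose by 5.88 log2 units in B6. The interaction of 4.51 ± 0.47 (adjusted p = 4.93e-05) was the largest of all named genes. Its other probe gave the same direction at 1.33, with responses of 2.74 in F1 and 1.41 in C3H, against 5.23 and 0.73 by the first. F1 minus C3H in vehicle uteri was 2.27 by the other probe and -0.44 by the first. The probes thus differ in both responses, more so in F1, and in the vehicle level. Pbp2, a phosphatidylethanolamine-binding protein, was at -3.86, -3.69 and -4.03 in F1 E2 and -6.12, -6.12 and -6.27 in F1 vehicle, against -6.11, -6.70 and -6.54 in C3H E2 and -6.47, -6.29 and -6.32 in C3H vehicle uteri. Only the F1 E2 arrays were high among the 12. It rose 4.97-fold in F1 with a response of -0.10 in C3H (adjusted p = 0.557) and 3.16 in B6, and had the smallest adjusted p of the comparison, 2.11e-06 (interaction 2.41 ± 0.20). Bpifb5, of the BPI fold family, rose by 0.89 in F1 and fell by 1.63 in C3H, and F1 stood 2.64-fold above C3H after E2 and 2.16-fold below it in vehicle uteri (interaction 2.51 ± 0.31, adjusted p = 0.000447). Crtac1, Pbp2 and Bpifb5 kept their calls in all alternatives.

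The 2 probes of Crtac1 lie at chr19:42177512-42178013 (probe 1, used above, whose 60 bases span that interval) and chr19:42177193-42177252 (probe 2), and those of Thumpd1 at chr7:115637748-115637807 (probe 1) and chr7:115640635-115640694 (probe 2), all on mm7 and the minus strand. They are printed because the probes of each gene differ in the strain effect they report. Sequence differences between the strains under these probes, and under those of Rit2, were not tested.
Crtac1 probe 1: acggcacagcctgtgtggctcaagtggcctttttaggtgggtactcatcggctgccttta
Crtac1 probe 2: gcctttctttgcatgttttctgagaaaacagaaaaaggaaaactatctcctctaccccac
Thumpd1 probe 1: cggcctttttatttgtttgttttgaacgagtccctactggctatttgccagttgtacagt
Thumpd1 probe 2: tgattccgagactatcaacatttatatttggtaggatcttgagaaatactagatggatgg
Thumpd1, an adaptor of tRNA acetylation, was at 0.93, 0.72 and 0.96 in F1 E2 and 1.10, 1.03 and 1.02 in F1 vehicle, against -8.45, -8.68 and -8.50 in C3H E2 and -3.21, -5.25 and -7.15 in C3H vehicle uteri by probe 1. It was well above background on no C3H E2 array and on 2 of 3 C3H vehicle arrays, and at least 264-fold higher in F1 after E2. Probe 2 gave F1 minus C3H differences of -0.33 after E2 and -0.10 in vehicle and an interaction of -0.23, against 3.16 by probe 1. The C3H vehicle arrays spread widely on probe 1, and its call was lost with normexp background correction. Among the 76 named genes that were called, 18 had several tested probes and 5 had probes of both signs.

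Most of the other large positive interactions came from dim probes. Of the 677 genes called higher, 385 (56.9%) were in the lowest 3 deciles of mean signal, and 56 of 396 tested symbols that start with Olfr, the olfactory receptors, were called higher (14.1%) and 0 lower, with 373 of the 396 in those deciles. Trim15 (4.20), Gpr63 (3.40), Olfr263 (3.36), Eya4 (3.33), Tspan10 (3.31), Epo (3.05), Cst10 (3.05), Olfr1217 (3.00) and Kcnk10 (2.98) were all well above background on 0 arrays of F1 vehicle uteri. Trim15 was well above background on 1 of 3 C3H vehicle arrays, at -4.02, with the others at -7.93 and -8.84. With background corrected by normexp in place of the scanner's own subtraction, 41 of 246 higher calls (16.7%) lay in the lowest 3 deciles, and with C3H E2 24 h replicate 1 left out 1236 of 1715 did (72.1%). In the upper 5 deciles, 164 genes were called higher (1.5%), and 135 (1.23%) with normexp. The replication list had 24 calls under normexp and 27 without that array.

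**Figure D4:**
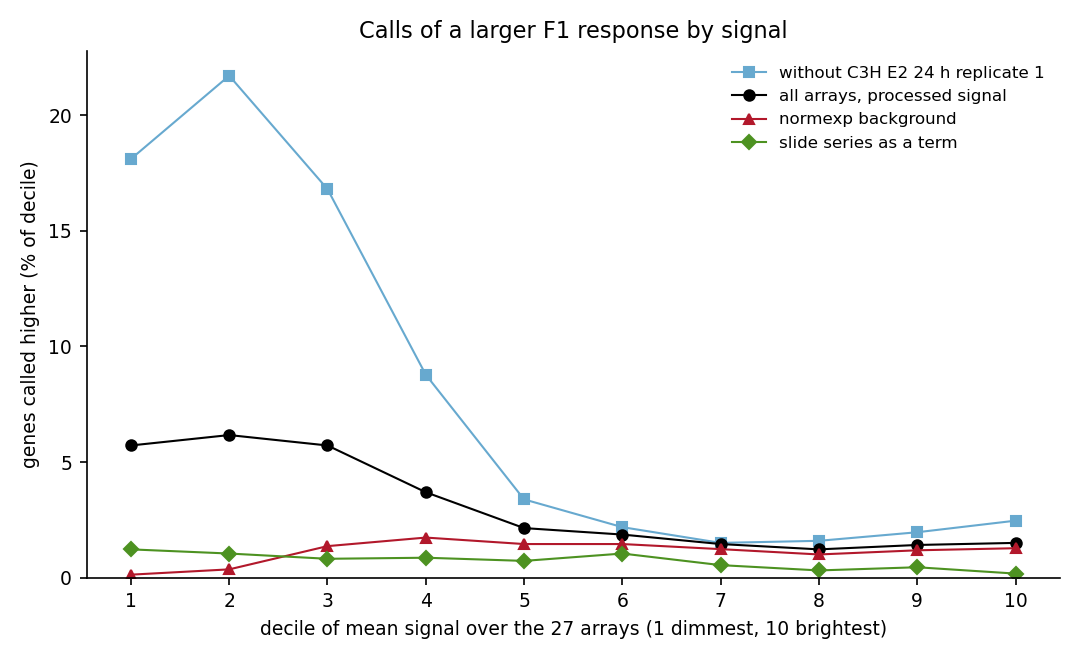
Share of genes called with a more positive F1 response (vertical axis, percent) in each decile of mean signal (horizontal axis) under 4 settings. The lowest 3 deciles range from 5.72% to 6.17% as reported, from 16.8% to 21.7% without C3H E2 24 h replicate 1 and from 0.137% to 1.37% with normexp, while the settings come closer together in the brighter deciles.

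Rit2, Gpx3 and Vnn1, well above background on all 12 arrays, fell in F1 and rose in C3H by their brightest probes. Rit2, a small GTPase, was at -3.81, -3.62 and -3.51 in F1 E2 and -2.29, -2.35 and -2.59 in F1 vehicle, against -4.95, -5.16 and -4.97 in C3H E2 and -5.53, -5.30 and -5.49 in C3H vehicle uteri, falling by 1.24 in F1 and rising by 0.41 in C3H (interaction -1.65 ± 0.23, adjusted p = 0.00121). Its dimmer probe gave responses of -1.82 in F1 and -0.23 in C3H, so the direction in C3H depends on the probe. Gpx3, the extracellular glutathione peroxidase, fell by 0.41 in F1 and rose by 0.44 in C3H (interaction -0.85 ± 0.14, adjusted p = 0.00298), from a 1.90-fold higher level in F1 vehicle uteri. Vnn1, a pantetheinase, fell by 0.62 in F1 and rose by 0.46 in C3H, and was 2.82-fold lower in F1 after E2. Over genes with a symbol, 12 fell in F1 and rose in C3H, and 106 rose in F1 and fell in C3H, 21 of the 106 with an Olfr symbol and 61 well above background on all 12 arrays.

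The genes of the estrogen receptor and of the progesterone receptor did not differ by call. Esr1 fell by 0.55 in F1 and by 0.66 in C3H (interaction 0.12 ± 0.19, adjusted p = 0.80), and the progesterone receptor gene Pgr rose by 0.91 and by 0.94 in the same order (interaction -0.03 ± 0.12, adjusted p = 0.939). Tlr4 fell by 0.86 in F1 and by 0.98 in C3H (interaction 0.11 ± 0.12, adjusted p = 0.690). The strain label checks H2-Ea (-0.38) and Nnt (-0.13) had no call for the interaction. Process lists with 0 members called were steroid receptors and cofactors (23 measured), steroid metabolism (21), the WNT pathway (33), hedgehog, IGF and FGF signalling (30), retinoic acid (23), complement (21), Toll-like receptors (20) and antigen presentation (19), with medians between -0.115 and 0.03. At an unadjusted p under 0.05, limma gave 2, 4, 4, 4, 4, 1, 3 and 0 members of these lists in that order, and 18.8% of all genes. Of the marker lists, those of T cells, nerve and glia, ovary, and oviduct and ciliated epithelium had 1 called member each and the others 0. A p above the threshold does not show equal responses.

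Single members were called in several signalling and matrix lists. Ereg, an EGF receptor ligand, rose by 1.19 log2 units in F1 and fell by 0.79 in C3H (interaction 1.98 ± 0.43, adjusted p = 0.0152). It was the 1 call among 20 EGF receptor ligands and feedback genes (5%, against 3.1% of all genes called higher). Its call held in all 12 fits without 1 array but not with normexp background or the barcode series as a term. The matrix protein gene Thbs1 fell by 1.07 in F1 and by 1.83 in C3H (interaction 0.76 ± 0.18, adjusted p = 0.0227). It was the 1 call among 31 collagens and matrix genes (3.23%, near the 3.1% of all genes), kept in 7 of the 12 fits. The transcription factor gene Runx1 rose by 0.59 in F1 with a response of -0.02 in C3H (adjusted p = 0.864) by its brightest probe. Its other probe gave 0.10 in F1 and 0.25 in C3H, an interaction of -0.15, and the call held in 5 of the 12 fits and was lost with normexp and with the mean of probes. Inhba, an activin subunit, had a response of -0.11 in F1 and fell by 0.83 in C3H, but its call (adjusted p = 0.0478) held in 0 of the 12 fits without 1 array. All 12 smooth muscle markers had a positive interaction, with a median of 0.23, against 0.03 over all genes. For these 12 limma called 0 for the interaction (1 at an unadjusted p under 0.05). In vehicle uteri 5 of the 12 were called lower in F1 than in C3H (9% of all genes were) and 0 higher. Their median difference there was -0.27, and after E2 1 was called lower and 0 higher.

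Adipocyte markers differed widely between arrays. The 11 measured averaged -0.44, -1.70 and -1.01 on F1 E2 and 2.04, 0.12 and 0.67 on F1 vehicle arrays, against -1.37, -0.47 and -1.002 on C3H E2 and -1.99, -2.09 and 0.72 on C3H vehicle arrays, with a median interaction of -2.72 and 0 called by limma (7 at an unadjusted p under 0.05). In vehicle uteri 6 of the 11 were called higher in F1 than in C3H (5.35% of all genes were) and 0 lower. Their median difference there was 2.74, and after E2 0 were called in either direction. C3H vehicle replicate 3 stood with the F1 vehicle arrays. The part of these cells in the results above was not tested. Without F1 vehicle replicate 1, the array with the highest adipocyte markers, 26 replication genes were called with a median of 0.61. That fit called 399 of the 21866 genes tested higher. It still set F1 vehicle arrays at 0.12 and 0.67 against C3H vehicle arrays at -1.99, -2.09 and 0.72, so it does not even out these markers.

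**Figure D5:**
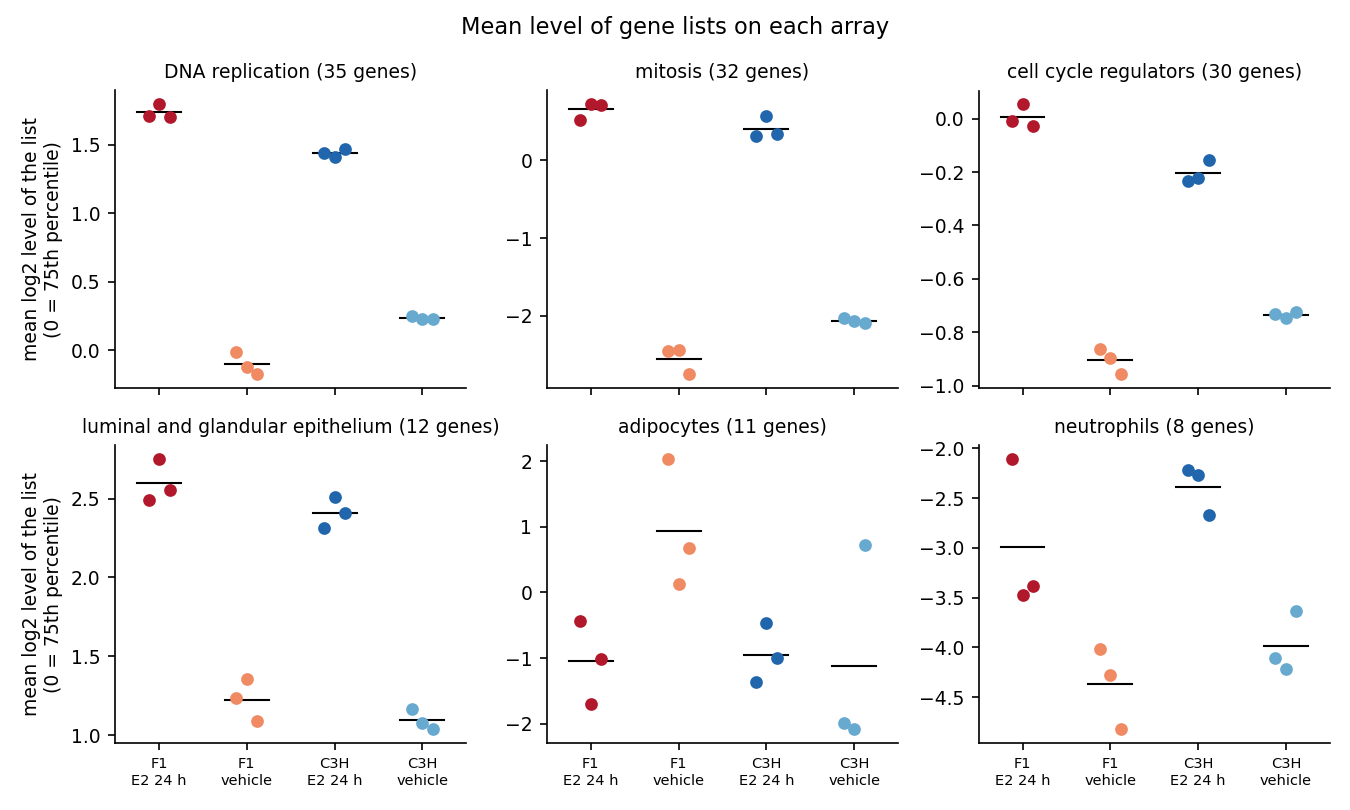
Mean log2 level (vertical axes, 0 is the array's 75th percentile) of 6 gene lists on each of the 12 arrays, with a bar at the mean of 3 arrays. Replication genes separate F1 from C3H in both treatments with little spread, from 1.70 to 1.80 against 1.41 to 1.47 after E2, whereas adipocyte and neutrophil markers spread widely within groups.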

How the data were processed

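RNA of whole uterus was hybridised to 1-colour Agilent mouse arrays (45018 spots). Per the file headers, the deposited processed signal is a linear intensity, background-subtracted within each array and not scaled between arrays. Agilent Feature Extraction 9.5 made the files, per the submitters' processing notes. The deposited matrix of the authors held the same intensity in 27 of 27 columns (relative tolerance 1e-05) and was not used further.

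Control spots (1639) and outlier spots were left out, and spots of a probe were averaged (41174 probes). The measure was log2 intensity minus each array's log2 75th percentile. A probe was kept (32901) if it passed the scanner's background test on every array of any 1 of the 9 groups, and the brightest probe stood for a gene. Of 21866 genes, 16727 had a symbol from RefSeq's genes, through the file's accession, symbol or synonym, and the others kept the file's name. Folds are "at least" where a group was well above background on no array.

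A model of 9 group means over 27 arrays was fitted by lmFit and moderated by eBayes (limma 3.58.1, R 4.3.3, data.table version 1.17.8), leaving 18 residual degrees of freedom with a prior of 1.95. A call is an adjusted p under 0.05, after Benjamini and Hochberg, across the genes tested. The fit was tested on simulated data. Values were read with pandas 2.3.3 and numpy 2.4.6 (Python 3.11.15) and drawn with matplotlib 3.10.9. Signal over background and the number of arrays limit the precision.

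The comparison, the 51 gene lists (30 of processes, 21 of cell type markers; 950 of 1026 entries measured) and the naming rule were chosen with earlier results of these data known. Named genes, all with a symbol, were the 12 largest called interactions in each direction (well above background on every array of at least 1 of the 4 groups), up to 8 per direction with opposite responses, up to 4 called members per list (or the 2 largest where fewer than 2 were called), the 6 smallest adjusted p in each direction, and Esr1, Pgr, Tlr4, H2-Ea and Nnt. The replication genes given by role were named after their values were seen. Alternatives covered scaling, background, probe filter, probe choice, prior, arrays fitted, slide, barcode series, replicate number and each array left out. All slides were scanned on 1 day, so no scan date term was fitted.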

Additional observations from a re-analysis of the deposited data

Results flagged for a closer look

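The responses of F1 and C3H differed by the test of the difference itself for 838 genes. The 16 genes named for responses of opposite sign, the 8 largest interactions in each direction, had both responses called as well. F1 rose and C3H fell for Trim15 (interaction 4.20 log2 units), Olfr61 (3.96), Gpr63 (3.40), Olfr263 (3.36), Olfr969 (3.16), Khdc1b (3.12), Epo (3.05) and Cst10 (3.05). None of these 8 was well above background on any F1 vehicle array, and none kept its call with normexp background. F1 fell and C3H rose for Rit2 (-1.65), D830014E11Rik (-1.49), Nxpe4 (-1.11), Vnn1 (-1.08), Zmat4 (-0.98), Gpx3 (-0.85), Cndp1 (-0.73) and Agmo (-0.69). Of these 8, all but D830014E11Rik were well above background on all 12 arrays, and Rit2, Nxpe4, Vnn1, Gpx3, Cndp1 and Agmo kept their call with normexp. A second probe of Nxpe4 gave 0.47, one of Zmat4 gave -0.02 and one of Rit2 gave -1.60, with a C3H response of -0.23.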

How the results depend on the processing

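The 838 interaction calls became 346 with normexp background (298 shared with the 838), 540 with only the 12 arrays (379 shared), 210 with the barcode series as a term (174 shared) and 440 at a 2-fold minimum. At that minimum the F1 response had 5033, the C3H response 4163, the F1 to C3H level difference 578 after E2 and 817 in vehicle. The level difference after E2, 3286 genes as reported, was 1973 unscaled and 504 with the barcode series as a term. Leaving out 1 array gave 349 to 1912 for the interaction, 14029 to 15277 for F1, 13538 to 14779 for C3H, 2388 to 3435 for the level after E2 and 2132 to 3543 in vehicle; the cause was not tested. The replicate block gave 805 interaction calls. Same-numbered arrays did not deviate together (r from -0.174 to 0.187 over 18 pairs, and 3 of 12 arrays matched their own number best). The values thus showed no pairing by number, though with 3 arrays a group they cannot exclude one. With each array's median set equal, the median response of all genes was 0.15 in F1 and 0.03 in C3H, against -0.04 and -0.16 as reported; unscaled, 8407 genes rose and 6023 fell in F1. In vehicle the split was 1169 and 1968 as reported, 1476 and 1590 with quantile normalization and 699 and 2246 unscaled. The interaction of Thumpd1 turned to -0.23 when probes had to be well above background on all 12 arrays, which drops its brighter probe. Of the 76 called named genes, 33 kept the call in all 12 leave-outs, 39 with normexp, 25 with the barcode series term, and 15 in all of these and the other settings. The normexp fit left out 0 to 16 spots per array over 50 units below their local background. The alternatives without C3H E2 24 h replicate 1 for lists, without F1 vehicle replicate 1 by signal, and a floor of 5 intensity units (896 calls) were chosen after seeing the data. Signal near background, 3 arrays a group and slides that follow the groups limit these results.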
